A study of Mus musculus with 22 samples.

Results

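The cyclin-dependent kinase inhibitors Cdkn1a, Cdkn1b, Cdkn1c, Cdkn2a, Cdkn2b, Cdkn2c and Cdkn2d were followed through the exit of starved mouse fibroblasts from rest. The rule that picks them uses gene symbols and no measured value, but they were chosen with earlier results of these data known. Of the 7, 4 have a row in the table of 11208 genes: Cdkn1a, Cdkn1b, Cdkn2c and Cdkn2d. Cdkn1c, Cdkn2a and Cdkn2b have no row. No gene of the table has a mean below 99.6 normalised counts over all libraries, so no statement on the levels of those 3 genes can be made. All 4 genes present passed the filter on low values, 10 normalised counts in any 2 libraries, which removed no gene of the table.

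RNA was measured in NIH/3T3 cells, an established line of mouse embryo fibroblasts, with a stably integrated doxycycline-inducible construct that encoded E2F1 (the E2F1 line) or nothing (the empty vector or EV line). All groups first spent 48 h in 0.25% serum. The E2F1 line was sampled at 0 h and after 2, 6 and 12 h of 500 ng/ml doxycycline, and the EV line at the same times of doxycycline and after 2, 6 and 12 h of 10% serum. The 0 h EV libraries served as the start of both EV time courses. The 11 groups held 2 libraries each, 22 in all. The promoter that drives the construct, the species of its E2F1 sequence and whether a line is a pool or a clone are not given in the sources used here. Serum was given to the EV line, so serum and E2F1 induction were compared across lines.

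These inhibitors are the brakes of the cell cycle engine, in which cyclin-dependent kinases (CDKs) phosphorylate the retinoblastoma protein and release E2F factors, which then drive genes of DNA replication. The INK4 proteins bind CDK4 and CDK6 and keep D-type cyclins off them. They are p16 (Cdkn2a, a locus that also encodes the p53 activator p19ARF), p15 (Cdkn2b), p18 (Cdkn2c) and p19 (Cdkn2d). The CIP/KIP proteins p21 (Cdkn1a), p27 (Cdkn1b) and p57 (Cdkn1c) bind cyclin-CDK2 and cyclin-CDK1 complexes. Cdkn1a is a classic target of p53 and also an early serum response gene. Cdkn1b marks resting fibroblasts, and its protein is lost on mitogen stimulation. NIH/3T3 cells are known to have lost the Cdkn2a locus.

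The 4 measured genes lie on different chromosomes of GRCm38 (mm10), with positions from GENCODE M21. Cdkn1a (ENSMUSG00000023067.14) spans chr17:29090976-29100727 on the plus strand and Cdkn1b (ENSMUSG00000003031.14) chr6:134920401-134925513 on the plus strand. Cdkn2c (ENSMUSG00000028551.14) spans chr4:109660876-109667189 and Cdkn2d (ENSMUSG00000096472.2) chr9:21288410-21291407, both on the minus strand. Their annotated exons cover 3553, 4552, 2686 and 1574 bases. Cdkn1a overlaps AC167363.2, an unverified transcript of the opposite strand, and the use of strand in counting is not given in the sources used here, so reads of the 2 cannot be told apart.

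Upstream sequence is shown because E2F1 and p53 sites would be sought there, for 3 of the 4 genes whose RNA rose together under E2F1. The stretches come from RefSeq (GRCm38.p6), hold no annotated exon and are printed 5′ to 3′ on the gene's strand. Capitals mark, in Cdkn1a, a p53 consensus element (a pair of p53 decamers with at most 13 bases between them) and, in Cdkn1b, a GC box (GGGCGG). The Cdkn1a stretch is chr17:29090729-29090975 on the plus strand and the Cdkn1b stretch chr6:134920151-134920400 on the plus strand. The Cdkn2c stretch, chr4:109665373-109665609 on the minus strand, lies before the second of its annotated starts and holds none of the marked motifs.
Cdkn1a: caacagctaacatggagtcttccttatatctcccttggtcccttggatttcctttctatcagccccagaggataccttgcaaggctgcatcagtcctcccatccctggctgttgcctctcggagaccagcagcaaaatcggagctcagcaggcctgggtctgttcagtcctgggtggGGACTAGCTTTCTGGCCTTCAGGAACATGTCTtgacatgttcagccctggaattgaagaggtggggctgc
Cdkn1b: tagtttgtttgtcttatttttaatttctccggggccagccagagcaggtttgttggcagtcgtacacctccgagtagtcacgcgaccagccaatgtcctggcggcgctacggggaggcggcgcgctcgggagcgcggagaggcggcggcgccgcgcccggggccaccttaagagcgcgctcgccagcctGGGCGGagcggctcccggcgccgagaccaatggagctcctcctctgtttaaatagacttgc
Cdkn2c: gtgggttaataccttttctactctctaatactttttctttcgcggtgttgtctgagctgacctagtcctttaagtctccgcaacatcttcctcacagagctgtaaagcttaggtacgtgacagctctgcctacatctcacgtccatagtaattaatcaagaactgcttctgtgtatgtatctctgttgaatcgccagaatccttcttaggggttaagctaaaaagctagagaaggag

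Both strands of the 250 bases before each annotated start were searched. The Cdkn1a element lies 73 to 42 bases before the first RefSeq start, and such an element occurs before 21 of 32851 mouse starts (0.0639%). The window before the other annotated start of Cdkn1a, further downstream, holds no such element. No strict E2F word (TTTCCCGC, TTTCGCGC, TTTGCCGC or TTTGGCGC) occurs before the starts of Cdkn1a, Cdkn1b, Cdkn2c or Cdkn2d, and 1.86% of all starts have 1. The FOXO word GTAAACA does not occur before these starts either, and 3.17% of all starts have it. A GC box, found before 32.7% of all starts, precedes at least 1 start of each of the 4 genes. These are matches of letters in a window and say nothing of binding, which was not analysed here.

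Totals ran from 34014608 to 46057140 normalised counts per library. All 10 fibroblast markers sought were in the table, with sums of 689846 to 1412915, and none of the markers of epithelium, blood, endothelium, skeletal muscle, fat or nerve was. E2f1 itself stood at 1703 and 1637 in the E2F1 line at 0 h, at 1535 and 1755 at 2 h, at 3806 and 3602 at 6 h and at 2683 and 2845 at 12 h. The starved EV cells had E2f1 values of 1635 and 1655. Serum took them to 802 and 740 by 2 h, 1186 and 956 by 6 h, and 4615 and 4247 by 12 h. Both 12 h serum libraries thus exceeded every library of the E2F1 line. EV libraries given doxycycline ran from 1307 to 1635. The construct's RNA need not be counted under the mouse gene. The 2 h doxycycline libraries stood apart from their labels. In the other libraries of the doxycycline courses, of 0, 6 and 12 h, 12 genes were at least 4-fold apart between the lines. For these genes the E2F1 libraries of 2 h lay 63.0% and 55.6% of the way from the EV to the E2F1 level. The EV libraries of 2 h lay at 18.8% and 14.0%. Every 2 h doxycycline value below rests on these 4 libraries. Without them, all other calls on the 4 genes were as given here. The part of this shift in the 2 h results was not tested.

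**Figure D1:**
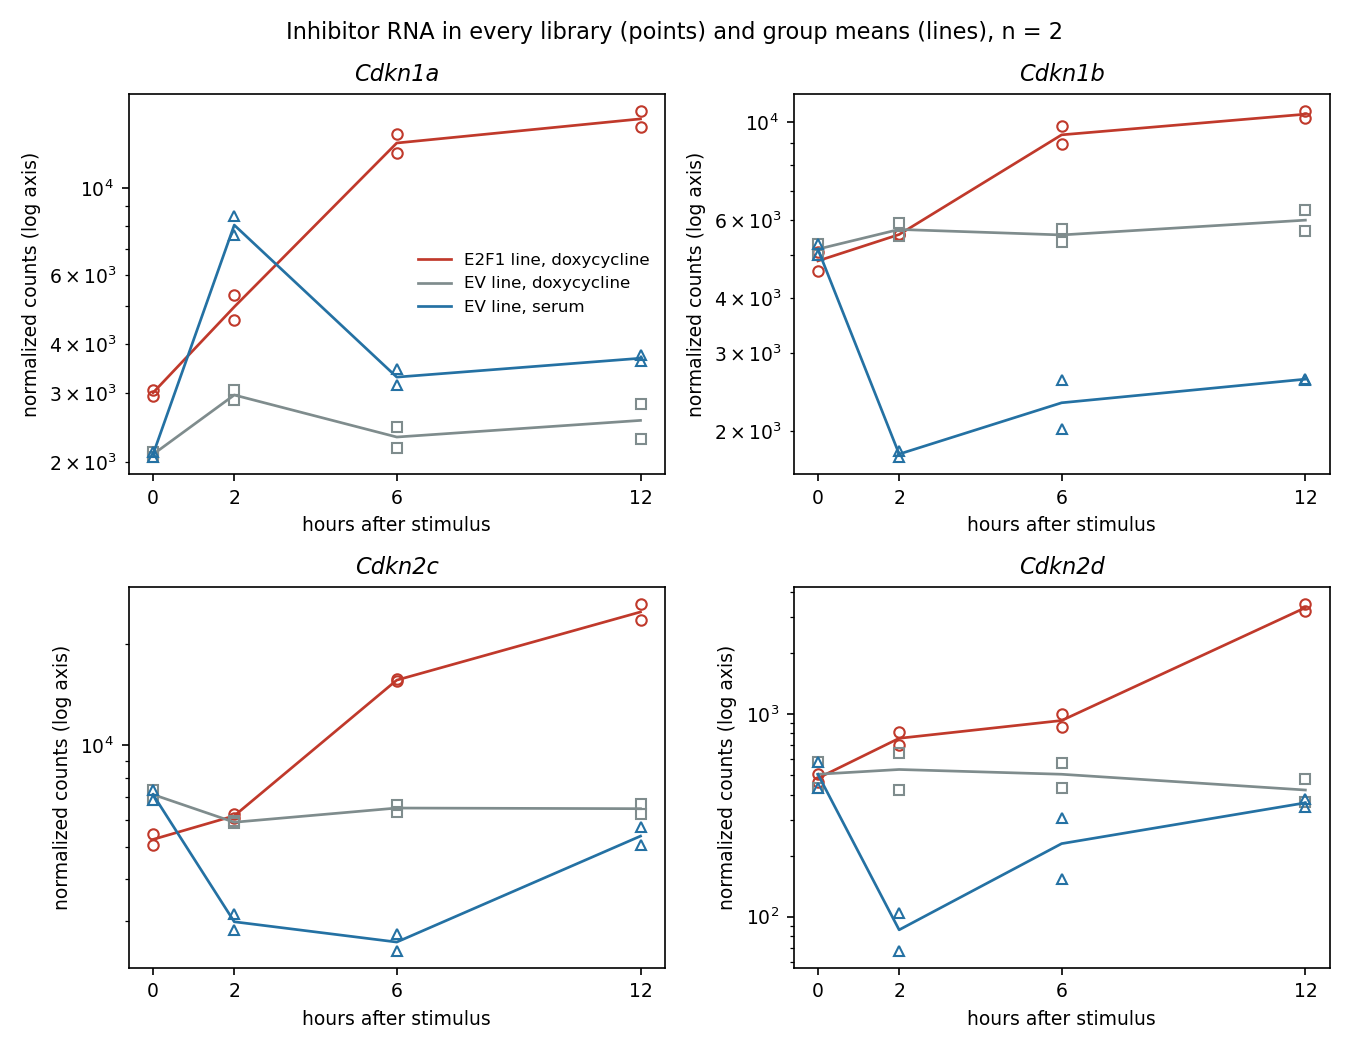
Normalised counts of the 4 inhibitor genes on log axes against hours after the stimulus, with 1 point per library and lines through the means of 2 libraries. Red circles are the E2F1 line under doxycycline, grey squares the EV line under doxycycline and blue triangles the EV line in serum. All 4 genes reach their highest level at 12 h of E2F1 induction, and Cdkn1b, Cdkn2c and Cdkn2d are lowest in serum.

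Each inhibitor had its highest group mean at 12 h of E2F1 induction. The lowest mean was at 2 h of serum for Cdkn1b and Cdkn2d, at 6 h of serum for Cdkn2c, and in the starved EV cells for Cdkn1a. The highest mean was 7.17 times the lowest for Cdkn1a, 5.88 times for Cdkn1b, 9.55 times for Cdkn2c and 38.8 times for Cdkn2d.

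In the E2F1 line all 4 measured inhibitors, of both families, were higher at 6 and 12 h of doxycycline than at 0 h. Limma called 1 of 4 higher at 2 h, 4 of 4 at 6 h and 4 of 4 at 12 h. Over all genes 0.865% were called higher at 2 h, 28.8% at 6 h and 31.8% at 12 h. The median log2 change of the 4 was 0.44, 1.26 and 2.28 at the 3 times, beside 0.02, -0.03 and -0.02 over all genes. Changes are on the log2(value + 1) scale, adjusted p-values are from limma over all 11208 genes, and n = 2 libraries per group. Nothing in the labels says that replicates are separate cultures, so the p-values measure only the spread between these libraries. RNA per cell and the number of cells in a given state cannot be told apart in such bulk samples.

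Of the CIP/KIP genes, Cdkn1a stood at 3066 and 2954 normalised counts at 0 h of E2F1 induction, 4621 and 5344 at 2 h, 13789 and 12293 at 6 h, and 15754 and 14293 at 12 h. Both libraries of each later time lay above both of the time before. On the log2 scale it rose by 0.72 in 2 h (SE 0.103, adjusted p 0.00122) and 2.11 in 6 h (adjusted p 2.47e-11). The 12 h rise was 2.32 (adjusted p 1.2e-11), a 4.99-fold rise of the mean. The authors' deposited table lists Cdkn1a with log2 changes of 2.15 at 6 h and 2.33 at 12 h. Cdkn1b stood at 4616 and 5098 at 0 h, 5571 and 5575 at 2 h, 8935 and 9807 at 6 h, and 10621 and 10249 at 12 h. The 2 h change of 0.20 did not pass the test (adjusted p 0.353), and those at 6 and 12 h were 0.95 (SE 0.0979, adjusted p 2.61e-07) and 1.10 (adjusted p 2.75e-08). With a 2.15-fold rise of the mean at 12 h, Cdkn1b had the smallest of the 4 changes there.

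Of the INK4 genes, Cdkn2c stood at 5456 and 5039 at 0 h of E2F1 induction, 6257 and 6076 at 2 h, 15715 and 15469 at 6 h, and 23508 and 26174 at 12 h. Every later library lay above both at 0 h, by 1.18-fold in the mean at 2 h, 2.97-fold at 6 h and 4.73-fold at 12 h. On the log2 scale the 2 h value was 0.23 (adjusted p 0.191), and the rises were 1.57 at 6 h (SE 0.0849, adjusted p 7.81e-11) and 2.24 at 12 h (adjusted p 1.97e-12). Cdkn2d, the gene of lowest value among the 4, stood at 504 and 459 at 0 h, 700 and 815 at 2 h, 997 and 857 at 6 h, and 3211 and 3470 at 12 h. Most of its rise came after 6 h, with log2 changes of 0.65 (adjusted p 0.269), 0.94 (SE 0.274, adjusted p 0.00812) and 2.79 (adjusted p 9.82e-08). The 6 h call was lost without E2F1 6 h replicate 1 (adjusted p 0.0642) or E2F1 0 h replicate 2 (adjusted p 0.0534). The authors' deposited table lists Cdkn2c (2.25) and Cdkn2d (2.80) at 12 h.

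The steps between times were tested next. From 2 to 6 h of induction 3 of 4 were called higher, beside 27.4% of all genes: Cdkn1a by 1.39, Cdkn2c by 1.34 and Cdkn1b by 0.75 (adjusted p at most 5.61e-06). Cdkn2d had 0.29 in that step (adjusted p 0.4). From 6 to 12 h 2 of 4 were called higher beside 15.1% of all genes. Cdkn2d gained 1.85 (adjusted p 8.3e-05) and Cdkn2c 0.67 (adjusted p 2.04e-05), while Cdkn1a had 0.20 (adjusted p 0.131) and Cdkn1b 0.16 (adjusted p 0.226). The 2 h values carry the limit on those libraries given above.

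**Figure D2:**
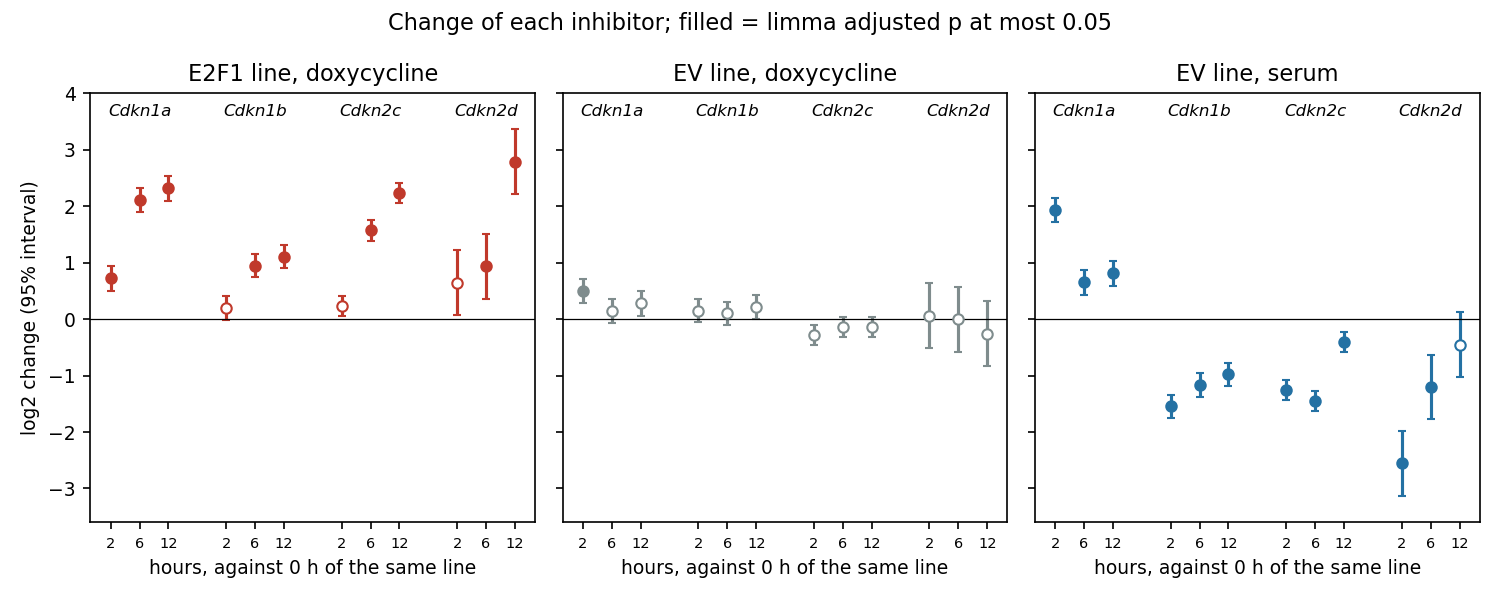
Log2 change of each inhibitor against 0 h of the same line, in 3 panels for the E2F1 line under doxycycline, the EV line under doxycycline and the EV line in serum, with 95% intervals that are not adjusted for multiple tests. Filled points passed limma's adjusted threshold of 0.05. In the E2F1 panel all 6 h and 12 h points are filled and above 0, the EV doxycycline panel has 1 filled point (Cdkn1a at 2 h, 0.50), and in serum Cdkn1a lies above 0 and the other genes below.

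The EV line given doxycycline shows the same drug, time and further starvation without E2F1. Cdkn1a stood there at 2128 and 2064 at 0 h, 3054 and 2887 at 2 h, 2177 and 2465 at 6 h, and 2820 and 2298 at 12 h. It was called higher at 2 h, by 0.50 (adjusted p 0.00715), which made 1 of 4 genes beside 4.93% of all genes called higher. That call was lost without EV 2 h replicate 1 (adjusted p 0.0582). Cdkn1b ran from 5016 to 6324 over the 8 libraries, and its log2 changes of 0.15, 0.11 and 0.22 did not pass. Its libraries were 5312 and 5016, 5929 and 5516, 5749 and 5372, and 5688 and 6324 at 0, 2, 6 and 12 h. At the same times Cdkn2c stood at 6887 and 7380, 5856 and 5948, 6350 and 6658, and 6247 and 6703. All later Cdkn2c libraries were thus below both at 0 h. Cdkn2d stood at 431 and 576, 640 and 423, 433 and 574, and 366 and 476, with overlap between every later time and 0 h. The 2 h change of Cdkn2c, -0.27, missed the threshold (adjusted p 0.0586) and passed it under quantile normalisation (adjusted p 0.0477). At 6 and 12 h limma called 0 of the 4 genes, beside 0.134% and 4.17% of all genes called either way. Without adjustment, 0 of 4 had a p under 0.05 at 6 h and 2 of 4, Cdkn1a and Cdkn1b, at 12 h.

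The difference between the lines was tested directly, as the doxycycline change in the E2F1 line minus that in the EV line. At 2 h 0 of 4 genes passed limma's test, beside 0.143% of all genes either way, and 1 of 4, Cdkn2c, had an unadjusted p under 0.05. Its difference was 0.51 (adjusted p 0.0991), and that of Cdkn1a was 0.22 (95% interval -0.09 to 0.53). At 6 h 3 of 4 rose more in the E2F1 line, beside 22.2% of all genes: Cdkn1a by 1.97 (adjusted p 1.62e-08), Cdkn2c by 1.70 (adjusted p 8.54e-09) and Cdkn1b by 0.84 (adjusted p 0.000121). Cdkn2d, with 0.94, missed the threshold (adjusted p 0.0686), but passed it without EV 0 h replicate 1 (adjusted p 0.0471) or with the compared groups alone (adjusted p 0.0209), which makes 4 of 4. At 12 h all 4 rose more in the E2F1 line, beside 27.3% of all genes. The differences were 3.05 for Cdkn2d (adjusted p 3.88e-06), 2.38 for Cdkn2c (adjusted p 2.45e-10), 2.04 for Cdkn1a (adjusted p 8.39e-09) and 0.89 for Cdkn1b (adjusted p 3.67e-05).

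Serum, which brings the growth factors that resting fibroblasts lack, moved the inhibitors in 2 directions: Cdkn1a rose at all 3 times, and the other 3 genes fell at 2 and 6 h. At 2 h and at 6 h 1 of 4 was called higher and 3 of 4 lower, where 37.5% and 36.5% of all genes were called higher and 33.5% and 31% lower. At 12 h 1 of 4 was higher and 2 of 4 lower, beside 36% and 29.7%.

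Cdkn1a stood at 8505 and 7608 at 2 h of serum, 3145 and 3454 at 6 h, and 3624 and 3748 at 12 h, against 2128 and 2064 in the starved EV cells. It was thus high early and partly back by 6 h, and each serum library stayed above both starved ones. In log2 terms it rose by 1.94 in 2 h (adjusted p 1.19e-11) and lay 0.65 above the start at 6 h (adjusted p 2.09e-05). The 12 h rise was 0.81 (adjusted p 1.91e-06). Over all settings of the processing tried, the rise ran from 1.52 to 2.02 at 2 h, 0.44 to 0.72 at 6 h and 0.67 to 0.84 at 12 h. Cdkn1b stood at 5312 and 5016 in the starved EV cells, and at 1801 and 1747, 2022 and 2614, and 2629 and 2614 at 2, 6 and 12 h of serum. It was lowest at 2 h and stayed below both starved libraries, with log2 changes of -1.54 (adjusted p 1.24e-10), -1.17 (adjusted p 8.2e-09) and -0.98 (adjusted p 1.08e-07). Over the same settings its 2 h change ran from -1.92 to -1.50.

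Cdkn2c stood at 6887 and 7380 in the starved EV cells, and at 2819 and 3159, 2456 and 2748, and 5039 and 5699 at 2, 6 and 12 h of serum. Its log2 changes were -1.26 (adjusted p 2.81e-10), -1.46 (adjusted p 8.21e-11) and -0.41 (adjusted p 0.000354), so that it had come most of the way back by 12 h. Its 2 h change ran from -1.63 to -1.17 over all settings tried. Cdkn2d stood at 431 and 576 before serum, and at 104 and 68, 153 and 305, and 380 and 348 after 2, 6 and 12 h. It showed the deepest early fall of the 4, with a log2 change of -2.55 (SE 0.274, adjusted p 1.4e-07) at 2 h, a 5.85-fold lower mean. At 6 h the change was -1.20 (adjusted p 0.000823), or -0.71 without serum 6 h replicate 1 (adjusted p 0.0316). The 12 h change of -0.45 did not pass (adjusted p 0.152). The authors' deposited table gives Cdkn2d a log2 change of -2.55 at 2 h of serum.

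The serum steps were tested as well. From 2 to 6 h Cdkn1a was called lower, with a log2 change of -1.29 (adjusted p 1.74e-08), 1 of 4 genes beside 24.3% of all genes called lower. Cdkn2d rose by 1.35 (adjusted p 0.000526) and Cdkn1b by 0.37 (adjusted p 0.0041), 2 of 4 beside 24.3% of all genes. Without serum 6 h replicate 2, the higher library of its group for both genes, the Cdkn2d step was 0.86 (adjusted p 0.0182) and the Cdkn1b step of 0.19 did not pass (adjusted p 0.115). The Cdkn1b step did not pass with the compared groups alone either (adjusted p 0.0586). From 6 to 12 h 2 of 4 were called higher beside 19.3% of all genes, Cdkn2c by 1.04 (adjusted p 3.86e-08) and Cdkn2d by 0.75 (adjusted p 0.037). The Cdkn2d step did not pass without serum 6 h replicate 1 (0.25, adjusted p 0.502), without serum 12 h replicate 1 (adjusted p 0.144) or without serum 12 h replicate 2 (adjusted p 0.0852), and it was 1.24 without serum 6 h replicate 2. With the compared groups alone (adjusted p 0.117) or quantile normalisation (adjusted p 0.11) it did not pass either.

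Serum was also compared with doxycycline in the same line at the same hour, which does not use the 0 h libraries. At 2 h Cdkn1a was higher in serum by 1.44, and Cdkn1b, Cdkn2c and Cdkn2d were lower, with log2 differences of -1.69, -0.98 and -2.61 (adjusted p at most 1.28e-07). That is 1 of 4 higher beside 35% of all genes and 3 of 4 lower beside 32.1%. The Cdkn1a difference ran from 1.03 to 1.52 over all settings tried. All 4 genes passed in the same direction at 6 h, where 35.8% of all genes were higher and 30% lower. The differences were 0.51, -1.27, -1.32 and -1.20 in the same order of genes. That of Cdkn1a was 0.32 under quantile normalisation and 0.30 with equal totals, and that of Cdkn2d was -0.71 without serum 6 h replicate 1, all past the threshold. At 12 h, with 37.9% of all genes higher and 32.5% lower, Cdkn1a had 0.53, Cdkn1b -1.19 and Cdkn2c -0.27 (adjusted p 0.00827). The last was lost without serum 12 h replicate 1 (adjusted p 0.122) or EV doxycycline 12 h replicate 2 (adjusted p 0.074), and was -0.44 under quantile normalisation. Cdkn2d, at -0.20, did not pass (adjusted p 0.529).

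E2F1 induction and serum were then set against each other as the change in the E2F1 line minus the serum change in the EV line. At 2 h the inhibitors split by gene, with Cdkn1a lower, at -1.22 (adjusted p 1.38e-06) and Cdkn1b, Cdkn2c and Cdkn2d higher by 1.74, 1.49 and 3.20 (adjusted p at most 1.52e-06). Under quantile normalisation the Cdkn1a difference was -0.77 (adjusted p 0.000176). These counts of 1 lower and 3 higher stand beside 30.2% and 26.6% of all genes. At 6 h all 4 were higher under E2F1, beside 30.3% of all genes, by 1.46 for Cdkn1a, 2.11 for Cdkn1b, 3.03 for Cdkn2c and 2.14 for Cdkn2d (adjusted p at most 0.000127). At 12 h all 4 were again higher, beside 25% of all genes, by 1.50, 2.08, 2.65 and 3.25 in the same order (adjusted p at most 2.41e-06). The comparison crosses lines as well as stimuli, and these cannot be told apart within it.

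The starved lines were not level before any stimulus. At 0 h Cdkn1a was higher in the E2F1 line (3066 and 2954 against 2128 and 2064) by 0.52 (adjusted p 0.00257), 1 of 4 genes beside 8.86% of all genes called higher. Cdkn2c was lower there (5456 and 5039 against 6887 and 7380), at -0.44 (adjusted p 0.00201), 1 of 4 beside 6.17% called lower. Cdkn1b had -0.09 (adjusted p 0.589) and Cdkn2d -0.05 (adjusted p 0.93), with overlapping libraries for both.

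Levels of the 4 genes were set against each other after division by the length of all annotated exons. That length can exceed that of the transcripts made in these cells, which were not determined, so shares between genes are approximate. Their sum was 4174 ± 77.4 normalised counts per kilobase (SD) in the E2F1 line at 0 h and 4700 ± 136 in the EV line. It was 12123 ± 290 at 6 h and 17891 ± 470 at 12 h of E2F1 induction, 4.29 times its start. In the EV line under doxycycline it lay between 4616 and 4718. In serum it was 3825 ± 114 at 2 h and 2552 ± 299 at 6 h, 0.543 times the start, and was 3843 ± 182 at 12 h. No test was made of this sum.

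Cdkn2c made up the largest share of the summed RNA per kilobase in 10 of the 11 groups, 46.8% ± 1.76 before and 51.7% ± 2.57 after 12 h of E2F1 induction. The exception was 2 h of serum, where Cdkn1a held 59.2% ± 2.91, against 12.6% ± 0.635 in the starved EV cells, and Cdkn2c 29.1% ± 3.21. At 6 h of serum the lead of Cdkn2c was narrow, with 38.0% ± 1.44 against 36.5% ± 1.86 for Cdkn1a. The share of Cdkn1b went from 25.6% ± 2.27 to 12.8% ± 0.66 over 12 h of E2F1 induction, although its own level rose. That of Cdkn2d went from 7.33% ± 0.348 to 11.9% ± 0.339, and in serum it was 1.42% ± 0.381 at 2 h.

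**Figure D3:**
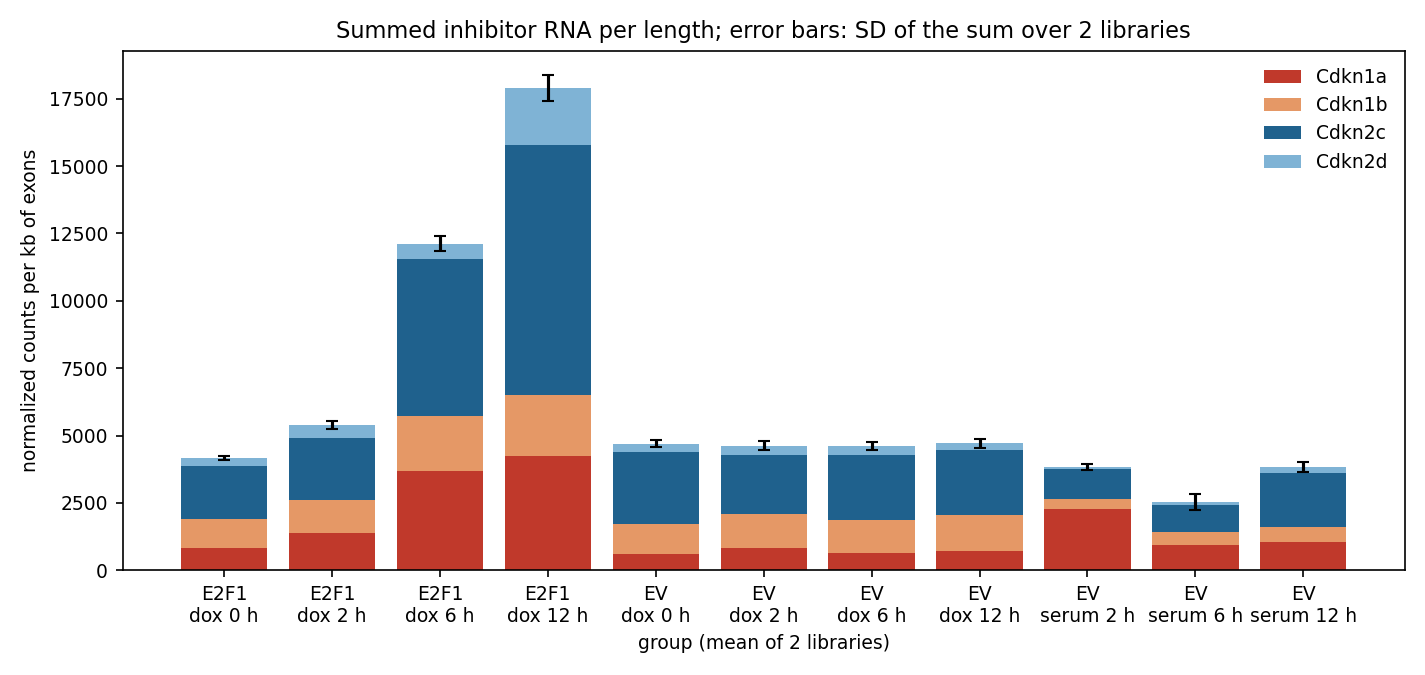
Stacked bars of the group means of the 4 inhibitors in normalised counts per kilobase of annotated exons, with error bars for the SD of the sum over 2 libraries. The bar at 12 h of E2F1 induction reaches 17891 against 4174 at 0 h, the EV doxycycline bars are level, and the bar at 2 h of serum is mostly Cdkn1a.

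The kinases and cyclins that the inhibitors bind, the pocket proteins downstream and the machinery that destroys inhibitor proteins were counted in lists. At 12 h of E2F1 induction 61.5% of all genes were called either way and 31.8% higher. At 12 h of serum 65.7% were called either way and 36% higher. All 6 CIP/KIP targets rose at 12 h of E2F1 induction, with a median log2 change of 2.57 beside -0.02 over all genes, and 5 of 6 rose at 12 h of serum, with a median of 1.32. Ccne1 (cyclin E1, the partner of CDK2 at the start of S phase) rose by 4.06 under E2F1 (adjusted p 8.75e-11) and by 3.15 in serum (adjusted p 1.33e-09). Cdk2 rose by 1.67 and by 1.22. Ccnb1 (the mitotic cyclin B1) rose by 1.99 under E2F1 and had -0.44 in serum (adjusted p 0.175). Without EV 0 h replicate 1 the serum count was 4 higher and 1 lower. In the EV line under doxycycline 0 of these 6 rose and 4 fell at 12 h, beside 3.42% of all genes called lower. None of those 4 falls passed without EV 0 h replicate 2, EV 12 h replicate 1 or with the compared groups alone.

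The 5 INK4 targets moved apart from each other under E2F1. At 12 h of induction Ccnd3 (cyclin D3) rose by 0.94 (adjusted p 9.17e-09) and Cdk4 by 0.44 (adjusted p 0.000291), while Ccnd2 (cyclin D2) fell, with a log2 change of -0.98 (adjusted p 2.62e-08). Ccnd1 (cyclin D1) had -0.74 (adjusted p 0.0121), and it had -0.86 in the EV line at the same hour (adjusted p 0.0502). Cdk6 did not pass. The Ccnd1 call under E2F1 was lost without E2F1 12 h replicate 2 (adjusted p 0.0861) or E2F1 0 h replicate 2. In serum all 5 rose by 12 h, but 3 of 5 without EV 0 h replicate 1, with Ccnd1 at 1.72 (adjusted p 5.58e-06), Ccnd2 at 0.75 and Cdk6 at 0.52. Of the 3 pocket proteins, which hold E2F factors in check, Rb1 and Rbl1 rose at 12 h of E2F1 induction by 2.34 and 1.92 (adjusted p 1.26e-09 and 1.85e-07), and Rbl2 had 0.00. In serum Rb1 and Rbl2 fell, with log2 changes of -0.98 and -0.87, and Rbl1 rose by 1.84.

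Of the 13 names listed for inhibitor turnover 12 were measured, since Skp1 appears under its other name Skp1a. At 12 h of E2F1 induction 6 rose and 2 fell, beside 31.8% of all genes called higher and 29.7% lower. Under quantile normalisation 5 rose and 5 fell. Skp2, which marks phosphorylated p27 for destruction, rose by 2.27 (adjusted p 7.78e-11) under E2F1 and by 1.67 (adjusted p 2.05e-09) at 12 h of serum. Its cofactor Cks1b rose by 0.62 and 0.93. Dtl, the adaptor that directs p21 to destruction in S phase, rose by 1.34 and 2.62. Ubac1 and Rnf123 form the KPC complex, which acts on p27 early in the cycle. Under E2F1 Ubac1 rose by 0.81 (adjusted p 6.3e-06) and Rnf123 fell, with a log2 change of -0.45 (adjusted p 0.00234). At 12 h of serum 5 of the 12 rose and 1 fell, beside 36% of all genes called higher and 29.7% lower. These are RNA levels, and inhibitor protein was not measured here. Ccna2, Ccnd1, Ccnd3, Ccne2, Cdc20, Cdk2, Cdk4, Ddb1, Rb1, Rbl2, Rnf123 and Skp2 overlap other protein-coding genes and Ccnb1 and Ccnd3 have a named pseudogene, which leaves their counts uncertain to that extent. The same holds for Bax, Cbx7, Plk3 and Trp53 among the genes named next.

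**Figure D4:**
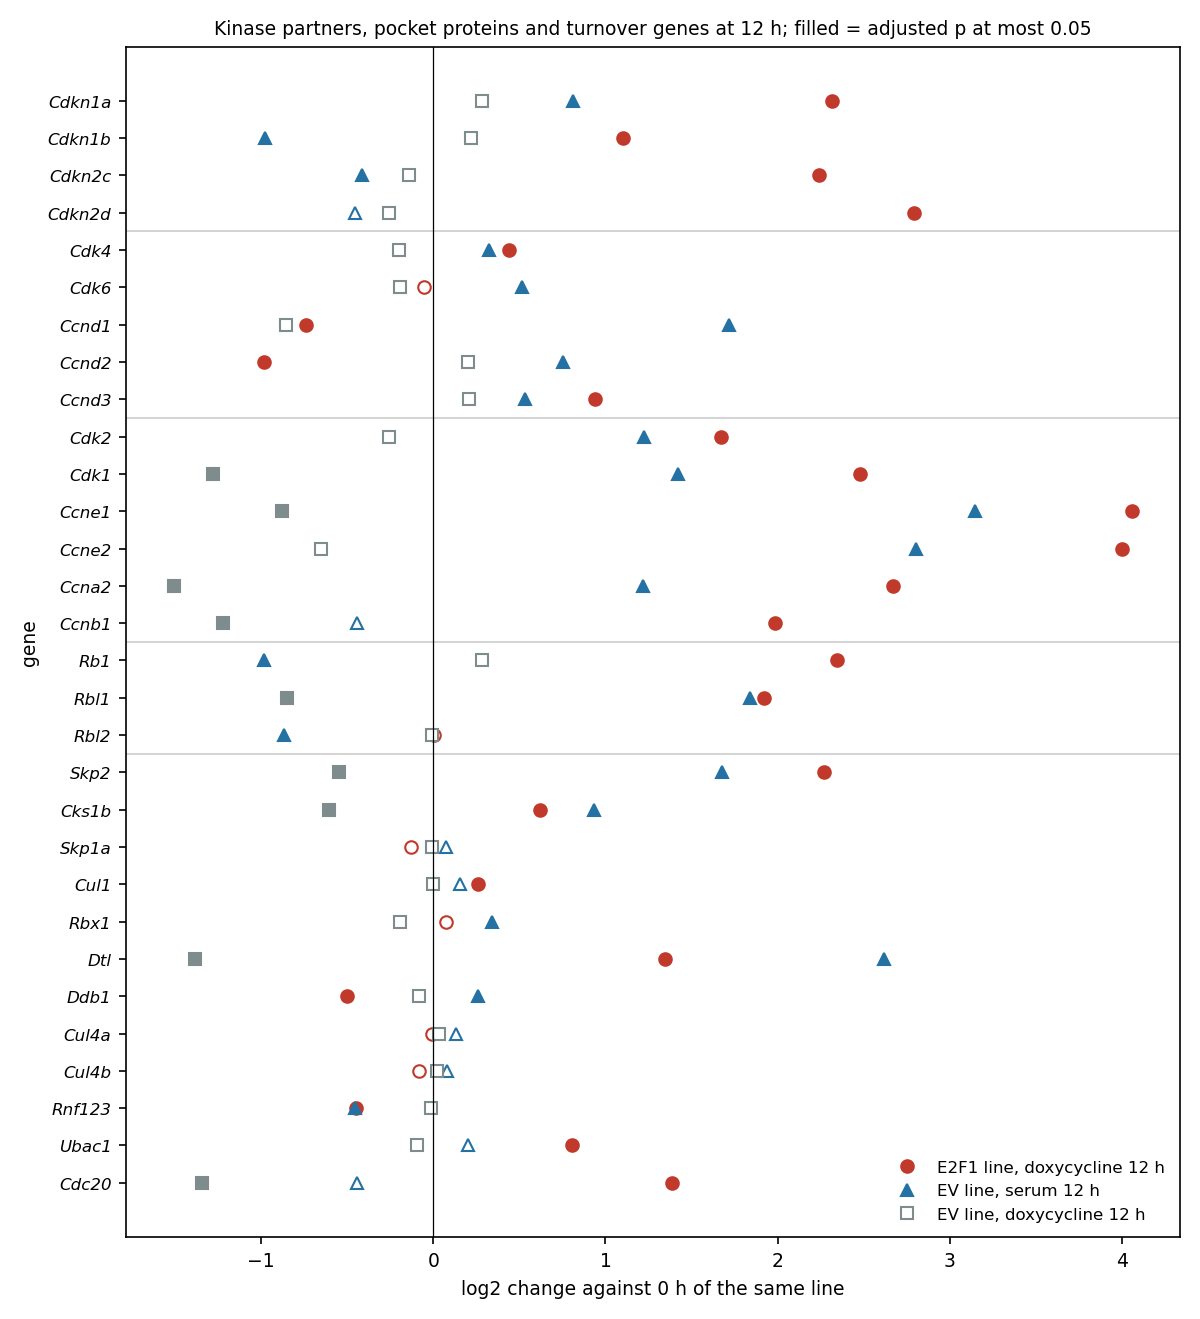
Log2 change at 12 h against 0 h of the same line for the 4 inhibitors and, below the lines, the INK4 targets, CIP/KIP targets, pocket proteins and turnover genes. Red circles are E2F1 induction, blue triangles serum and grey squares doxycycline in the EV line, filled where limma's adjusted p was at most 0.05. The inhibitors other than Cdkn1a lie on opposite sides of 0 in the first 2 series, while Ccne1, Cdk2 and Skp2 lie to the right in both.

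Known inputs to the inhibitor genes were counted in the same way. Of 20 genes of the p53 axis 19 were measured. At 12 h of E2F1 induction 9 rose and 2 fell, where 61.5% of all genes were called either way, 31.8% higher and 29.7% lower. Under quantile normalisation 6 rose and 4 fell, and without E2F1 12 h replicate 1 or replicate 2, or E2F1 0 h replicate 1 or replicate 2, 1 fell and 6 or 7 rose. Trp53 (p53 itself) rose by 0.47 (adjusted p 6.88e-05), and its targets Mdm2, Ccng1, Bax and Ei24 by 0.53, 0.51, 0.43 and 0.81. Each of these changes was below the 2.32 of Cdkn1a. Whether p53 had a part in the Cdkn1a rise was not tested. Sesn1 (a p53-induced stress gene) had -0.25 (adjusted p 0.175) and Plk2 fell, with a log2 change of -0.72 (adjusted p 0.00021). Serum at 2 h moved the axis in both directions: 11 rose and 6 fell, where 70.9% of all genes were called either way, and 8 rose and 7 fell with equal totals. Plk3, Aen and Btg2 rose by 2.89, 2.36 and 1.93 (adjusted p at most 1.86e-07), next to 1.94 for Cdkn1a. Sesn1, Trp53inp1 and Bbc3 (the death gene Puma) fell, with log2 changes of -2.90, -2.52 and -2.42 (adjusted p at most 1.48e-08).

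FOXO factors switch on Cdkn1b and others of its class in cells without mitogens. Of the 4 listed, 3 were measured, and all 3 fell at 2, 6 and 12 h of serum, where 33.5%, 31% and 29.7% of all genes were called lower. At 2 h Foxo3 had -2.03 (adjusted p 3.64e-11), Foxo4 -2.06 (adjusted p 1.16e-10) and Foxo1 -0.64 (adjusted p 0.000362), beside -1.54 for Cdkn1b. Where Cdkn1b rose by 1.10, at 12 h of E2F1 induction, Foxo1 rose by 0.50 (adjusted p 0.00365), and Foxo3 and Foxo4 fell, with log2 changes of -0.62 (adjusted p 0.000171) and -0.81 (adjusted p 3.52e-05). These are RNA levels, and whether FOXO factors had a part in the Cdkn1b changes was not tested. Of the 8 TGF-beta and MIZ1 inputs, which are best known for Cdkn2b and Cdkn1a, 2 rose and 4 fell at 12 h of E2F1 induction. Over all genes 31.8% were higher and 29.7% lower there, so the 6 of 8 called stand near the background of 61.5% called either way. There Myc, a repressor of Cdkn1a through MIZ1, had -0.97 (adjusted p 2.43e-05). At 2 h of serum 6 rose and 1 fell, beside 37.5% and 33.5% of all genes, and under equal totals 4 rose and 2 fell. Myc rose by 1.26 (adjusted p 6.09e-07) and the inhibitory Smad7 by 3.70 (adjusted p 2.65e-14), while the receptor Tgfbr2 fell, with a log2 change of -2.02 (adjusted p 4.01e-10).

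Of the 8 polycomb genes, which silence the Cdkn2a locus in other cells, 5 rose and 1 fell at 12 h of E2F1 induction, and 3 rose and 4 fell at 12 h of serum. Of all genes 31.8% were higher and 29.7% lower under E2F1, and 36% and 29.7% in serum. The count of 4 was 1 without serum 12 h replicate 1 and 2 without EV 0 h replicate 2. Ezh2, the methyltransferase of the complex, rose by 2.43 (adjusted p 4.98e-12) and by 1.34 (adjusted p 3.16e-09). Cbx7 (a reader of its mark) rose by 0.97 under E2F1 (adjusted p 8.17e-05) and had a log2 change of -1.76 in serum (adjusted p 7.74e-08). Cdkn2a and Cdkn2b, the genes this list bears on, have no value here. Of the 10 fibroblast markers 9 fell at 12 h of E2F1 induction and 6 fell and 2 rose at 12 h of serum, where 29.7% of all genes were called lower in each case. Their part in the results above was not tested.

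**Figure D5:**
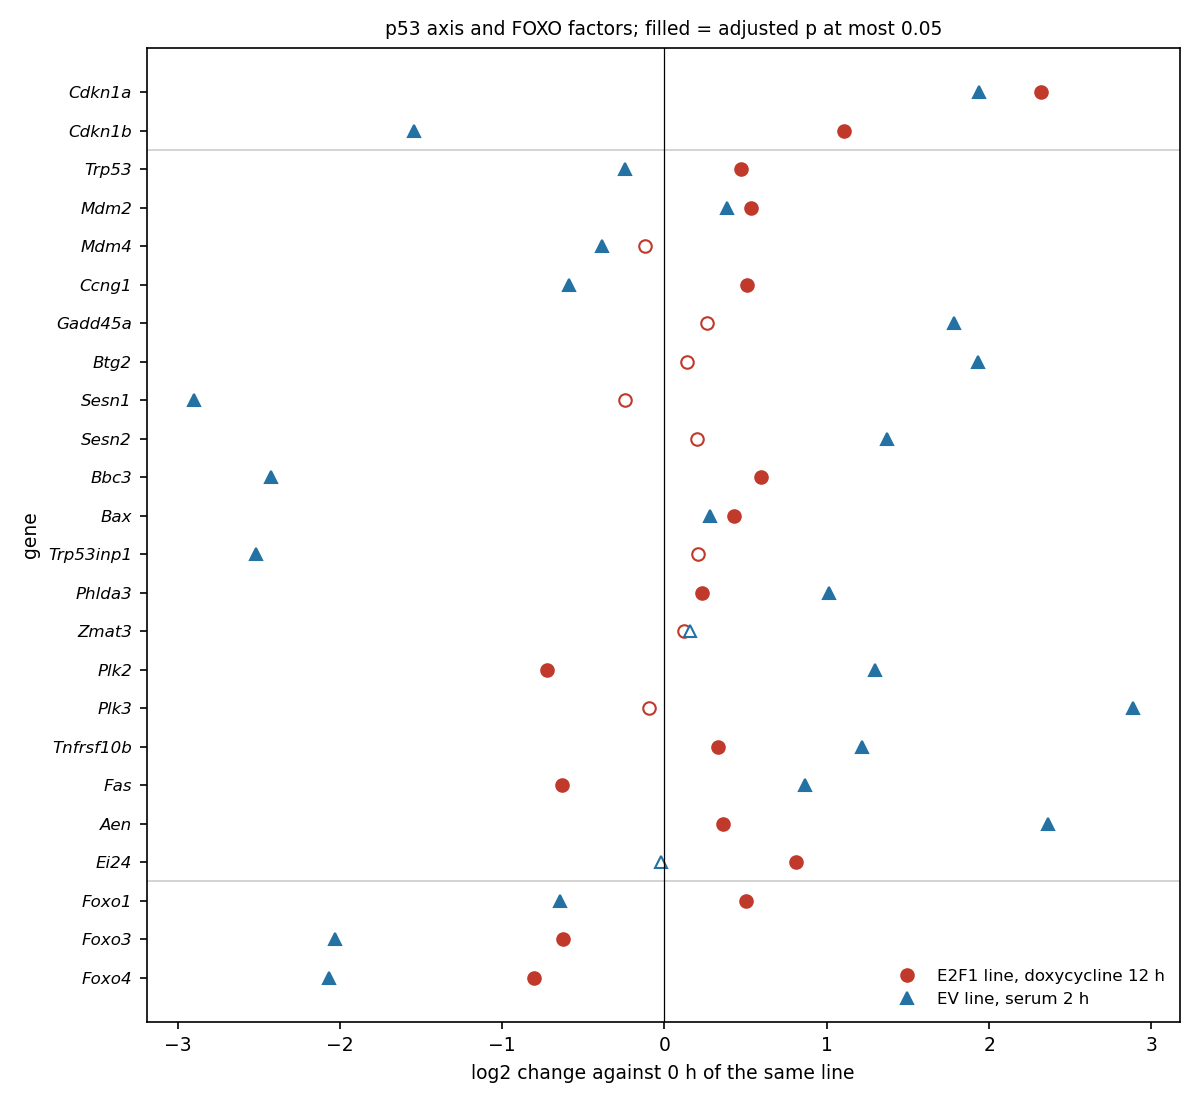
Log2 change of Cdkn1a, Cdkn1b, the p53 axis and the FOXO factors at 12 h of E2F1 induction (red circles) and 2 h of serum (blue triangles), filled where limma's adjusted p was at most 0.05. Under E2F1 Cdkn1a lies at 2.32, to the right of every gene of the axis, and in serum Foxo3 and Foxo4 lie near -2, on the same side as Cdkn1b.

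Among the 11 group means, ordered by level, many neighbours were not separated by their libraries. For Cdkn1a the order ran from E2F1 12 h through E2F1 6 h, serum 2 h, E2F1 2 h, serum 12 h and serum 6 h, each pair of neighbours apart. It went on to E2F1 0 h and EV 2 h, which overlapped, and to EV 12 h and EV 6 h, which overlapped as well, with EV 0 h last. For Cdkn2d the 3 induced E2F1 groups stood apart at the top and serum 6 h and 2 h at the bottom, while each of the 6 groups from EV 2 h down to serum 12 h overlapped with its neighbour. For Cdkn1b and Cdkn2c the top 2 places, E2F1 12 h and 6 h, stood apart from all other groups.

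Over the 11 group means of log2(value + 1), which share depth and scaling within each library, Cdkn1b, Cdkn2c and Cdkn2d followed each other with Pearson r from 0.89 to 0.91. Cdkn1a followed them less closely, with r of 0.28, 0.56 and 0.38 in the same order. The genes whose pattern was most like each inhibitor were taken from the whole table. They were Elf4 (r 0.985), Pias2 (0.983) and Kansl3 (0.981) for Cdkn1a, and Pmp22 (0.990), Rere (0.988) and Zfp974 (0.984) for Cdkn1b. Isoc1 (0.989), Pgm2l1 (0.987) and Ccdc57 (0.985) were nearest to Cdkn2c, and Tmem43 (0.979), Prdm10 (0.976) and Cep72 (0.972) to Cdkn2d. These values are descriptions over the same 11 groups and carry no test.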

How the data were processed

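Polyadenylated RNA was sequenced as 150-base read pairs in 22 libraries, 2 per group, and each sample's group was taken from its labels. The deposited values are normalised counts rounded to whole numbers for 11208 genes, used as a score because they are not raw counts. The submitters' processing notes name FastQC, Trimmomatic, HISAT2, featureCounts, DESeq2 and mm10, and the strand setting and versions are not given in the sources used here. The raw depth is therefore unknown here. The authors also deposited log2 fold changes and p-values adjusted for multiple tests in 9 tables limited to large changes, and these were used only where named. Scaling by a size factor sets levels relative to the bulk of genes, so a global shift in RNA would not be seen.

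After a log2(value + 1) transform, limma 3.58.1 (R 4.3.3) was run with 11 group means, an intensity trend and 11 residual degrees of freedom, and Benjamini-Hochberg adjustment over all genes at 0.05. Genes needed a value of 10 in 2 libraries. The method was tested on simulated data. Far fewer genes were changed in them at 6 h of E2F1 induction than were called here, so that test does not vouch for these calls. Sums, shares, motifs and plots were made with Python 3.11.15, pandas 2.3.3, numpy 2.4.6 and matplotlib 3.10.9. Of the gene identifiers 10977 matched GENCODE M21. The members and lists were chosen with earlier results of these data known. Named genes are the 7 inhibitors, members of 8 lists, and for each inhibitor the 3 genes of highest Pearson r over the group means. Other pseudocounts, filters, scalings, fold limits, left-out libraries, a replicate block and fits of the compared groups alone were tried. Leaving out the 4 libraries of 2 h doxycycline was chosen after seeing the data.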

Additional observations from a re-analysis of the deposited data

Results flagged for a closer look

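The changes of the inhibitors differed between E2F1 induction and a second time course by limma's test of the difference in 19 cases. The tests covered 4 genes at 2, 6 and 12 h against each EV time course, and these comparisons share the E2F1 libraries. For doxycycline in the EV line, 0.143% of all genes were called either way at 2 h, and 22.2% and 27.3% higher at 6 and 12 h. Against doxycycline in the EV line, the log2 difference of Cdkn1a was 1.97 at 6 h and 2.04 at 12 h. Cdkn1b had 0.84 and 0.89, Cdkn2c had 1.70 and 2.38, and Cdkn2d had 3.05 at 12 h.

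Against serum in the EV line, Cdkn1a had a log2 difference of -1.22 at 2 h, 1.46 at 6 h and 1.50 at 12 h. It was the only one of the 4 genes measured whose difference changed sign between 2 h and the later times. Cdkn1b had 1.74, 2.11 and 2.08 at the 3 times, Cdkn2c had 1.49, 3.03 and 2.65, and Cdkn2d had 3.20, 2.14 and 3.25. Over all genes 26.6%, 30.3% and 25% were called higher at 2, 6 and 12 h, and 30.2% lower at 2 h.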

How the results depend on the processing

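The 92 changes of the 4 inhibitors (23 comparisons) kept direction and call with a pseudocount of 8 or a mean of at least 500. The limit on the mean leaves each log2 change as it was and could alter only the calls. Dropping the filter gave the same fit, since the filter had removed no gene, and so tests nothing. Directions turned for 8 values, none of which passed the test. Leaving out 1 library gave Cdkn2d in the EV line -0.24 (without EV 2 h replicate 1) to 0.36 at 2 h of doxycycline, with -0.15 without EV 0 h replicate 1. At 6 h it gave -0.21 (without EV 0 h replicate 1) to 0.21, with -0.20 without EV 6 h replicate 2, and equal totals gave -0.0076. Between lines at 0 h Cdkn2d had -0.26 to 0.16 (without EV 0 h replicate 2), with 0.016 without E2F1 0 h replicate 2. The Cdkn1b difference between lines at 2 h had -0.019 (without E2F1 0 h replicate 1) to 0.12. The cause was not tested.

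With at least a 2-fold change also asked, the number of inhibitors called was 0 at 2 h of E2F1 induction, 2 at 6 h, 0 at 2 h of EV doxycycline, 0 at 12 h of serum and 0 between lines at 0 h. It was 1 for serum against doxycycline at 12 h, 1 from 6 to 12 h of E2F1 induction and 1 from 6 to 12 h of serum. Of all 11208 genes, this limit left 42 at 2 h of E2F1 induction and 1115 at 6 h. It left 71 higher and 30 lower at 2 h of EV doxycycline, 2150 at 12 h of serum and 208 between lines. For serum against doxycycline at 12 h it left 2748. The steps from 6 to 12 h kept 428 under E2F1 and 840 in serum. With the compared groups alone the number of inhibitors called was 2 at 2 h of E2F1 induction and 1 from 6 to 12 h of serum. Under quantile normalisation it was 2 at 2 h of EV doxycycline and 1 from 6 to 12 h of serum, and with equal totals 4 in the latter. Leaving out 1 library gave 0 to 1 at 2 h of EV doxycycline and 1 to 3 from 6 to 12 h of serum.

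Nothing in the labels ties equal replicate numbers together, and their deviations did not move together in every pair of groups. Over 55 pairs the correlation ran from -0.277 to 0.455 (median 0.0314), with 18 over 0.1 and 6 under -0.1. With a replicate block the inhibitors called at 2 h of EV doxycycline were 2, as Cdkn2c (-0.27) passed with adjusted p 0.0357, and Cdkn2c passed from 2 to 6 h of serum (-0.20, adjusted p 0.0375). The block changed no other call on the inhibitors.

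Over all genes, equal totals moved the median change by -0.374 at 2 h and -0.214 at 6 h of serum, where 2611 genes were higher and 5907 lower against 4200 and 3752, and 2914 and 4772 against 4093 and 3470. At 6 h of E2F1 induction quantile normalisation gave 2657 higher and 3820 lower against 3230 and 2569, and at 12 h 3131 and 4122 against 3569 and 3329. From 2 to 6 h of induction it gave 2535 and 3459 against 3076 and 2264. For the E2F1 minus EV change it gave 2068 and 2583 against 2493 and 1373 at 6 h, and 2659 and 3457 against 3059 and 2606 at 12 h. For the E2F1 minus serum change at 2 h equal totals gave 4970 and 1966 against 2977 and 3382. For serum against doxycycline they gave 2114 and 6050 against 3927 and 3596 at 2 h, and 2888 and 4629 against 4014 and 3362 at 6 h. They also gave 4077 and 1793 against 2722 and 2718 from 2 to 6 h of serum, 3184 and 1392 against 2164 and 2308 from 6 to 12 h, 2130 and 1771 against 1688 and 2265 from 6 to 12 h of E2F1 induction, and 1345 and 524 against 993 and 691 between lines at 0 h. Counts over all genes moved by over 1.5 times without 1 library or with the compared groups alone: 208 at 2 h of E2F1 induction became 26 to 596, 824 at 2 h of EV doxycycline became 157 to 505, 16 for the E2F1 minus EV change at 2 h became 2 (without E2F1 0 h replicate 2) to 45 (the compared groups alone), and 1684 between lines at 0 h became as few as 652. In the EV line 15 at 6 h became 1 to 30, and 467 at 12 h became 26 without EV 0 h replicate 2 and 803 without EV 0 h replicate 1. With 2 libraries a group, changes of Cdkn2d had the widest error of the 4 genes (SE 0.274).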
